A study of Homo sapiens with 12 samples.

Results

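The enzymes that break down the branched-chain amino acids leucine, isoleucine and valine were examined in SJSA-1 cells with and without RUNX2 silencing. The members are 10 genes, found by their Ensembl identifiers among the 59248 rows of the deposited gene tables, and 9 of them had enough counts to be tested among 16489 genes. SJSA-1 is a cell line grown from a human osteosarcoma, a tumor of bone. The 6 shNC libraries come from cells with stable expression of a scramble shRNA, and the 6 sh1 libraries from cells with stable expression of RUNX2 shRNA-1. Both lines carry a lentiviral vector with EGFP and a puromycin resistance gene and were kept under puromycin until every cell was EGFP-positive, so an uninfected line was not part of the comparison. A single RUNX2 shRNA is compared with a single control. Whether the 6 libraries of each came from separate cultures is not given, so every p-value is set against a spread between libraries that may be technical. In bulk RNA, less RNA per cell and fewer cells with that RNA cannot be told apart.

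Branched-chain amino acids first lose their amino group to alpha-ketoglutarate, which gives glutamate and a branched-chain keto acid. BCAT1 does this in the cytosol and BCAT2 in mitochondria. The branched-chain keto acid dehydrogenase complex then removes carbon dioxide in the irreversible step of the pathway. BCKDHA and BCKDHB form its E1 part, DBT is its E2 core and DLD its E3 part, BCKDK switches it off by phosphorylating BCKDHA, and the phosphatase PPM1K switches it on again. After that the routes divide. IVD and the biotin enzyme made of MCCC1 and MCCC2 act on the leucine carbon chain, and ACADSB acts on that of isoleucine. BCAT1 is known for its high expression in several kinds of tumor, while most other tissues rely on BCAT2.

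Of the 9 tested members, BCKDHB (1.24-fold), MCCC1 (1.22-fold) and BCKDK (1.19-fold) were higher in sh1, and none was lower, also not in DESeq2. The other 6, with both aminotransferases among them, did not pass the test. BCKDHA was counted too rarely to be tested. The test was edgeR's quasi-likelihood test across all genes at an adjusted p under 0.05, and fold changes are sh1 over shNC throughout. Of all genes tested, 12.8% were higher and 13.3% lower by the same rule, and nothing particular to the pathway is read from 3 of 9. At an unadjusted p under 0.05 the count of lower members was also 0. No member reached a 2-fold change, and 2.09% of all genes tested had at least a 2-fold change in either direction together with an adjusted p under 0.05. The median log2 fold change of the 9 members was 0.016, and that of all genes was -0.0035.

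The start-site regions of the 3 members that were higher are shown here because RUNX proteins are known to bind the word TGTGGT, which was searched together with its shorter core TGTGG. They run from 250 bases before to 50 bases after the RefSeq start of each gene (GRCh38.p14), 5′ to 3′ on the strand of the gene, with TGTGG or its reverse complement CCACA in capitals. BCKDHB lies at chr6:80106421-80106720 (plus strand), BCKDK at chr16:31108136-31108435 (plus strand) and MCCC1 at chr3:183099447-183099746 (minus strand). All 3 starts lie inside the gene as GENCODE 44 draws it.
BCKDHB: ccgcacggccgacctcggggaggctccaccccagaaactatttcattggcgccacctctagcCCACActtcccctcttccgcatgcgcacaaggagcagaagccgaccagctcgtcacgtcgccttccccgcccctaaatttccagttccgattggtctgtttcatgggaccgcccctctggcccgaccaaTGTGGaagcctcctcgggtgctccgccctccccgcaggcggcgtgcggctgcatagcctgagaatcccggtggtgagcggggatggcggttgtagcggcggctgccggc
BCKDK: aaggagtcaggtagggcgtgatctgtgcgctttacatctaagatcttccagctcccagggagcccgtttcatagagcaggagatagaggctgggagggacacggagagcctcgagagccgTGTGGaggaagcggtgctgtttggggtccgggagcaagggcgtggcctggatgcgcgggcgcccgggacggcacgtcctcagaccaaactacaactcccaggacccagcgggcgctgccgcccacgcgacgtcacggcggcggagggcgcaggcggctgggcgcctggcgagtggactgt
MCCC1: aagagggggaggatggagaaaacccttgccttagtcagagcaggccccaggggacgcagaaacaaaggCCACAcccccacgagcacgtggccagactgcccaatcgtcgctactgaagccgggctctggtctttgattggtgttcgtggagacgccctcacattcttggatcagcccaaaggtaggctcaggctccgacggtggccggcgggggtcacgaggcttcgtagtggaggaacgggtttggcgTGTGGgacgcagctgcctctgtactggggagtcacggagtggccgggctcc

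All 3 regions hold TGTGG on either strand, BCKDHB and MCCC1 at 2 places each and BCKDK at 1. So do those of BCAT1, BCKDHA and MCCC2, which makes 6 of the 9 members with a region in the table, and so do 51.4% of the regions of all 27305 genes. The full word TGTGGT, which contains TGTGG, was found on either strand in 13.1% of all regions and, among the members, only in that of BCKDHA, none of the 3 that were higher. It is shown in capitals, as its reverse complement, in the 46 bases at chr19:41397683-41397728 (plus strand).
BCKDHA: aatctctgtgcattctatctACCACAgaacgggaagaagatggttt

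The CCAAT word, searched on both strands, was in the regions of BCKDHA, BCKDHB, DBT, IVD, MCCC1 and MCCC2, 6 of 9 members, against 35.7% of all regions. The palindrome CACGTG, an E-box bound by MYC and related factors, was in those of BCAT1, MCCC1 and MCCC2, against 7.43% of all regions. Where a gene had several regions in the table, the one listed first was used, and these letters say nothing about binding in these cells.

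The total gene count per library was 15328312 to 19992974 in shNC and 11239638 to 16346022 in sh1, where sh1 replicate 3 stood apart as the lowest (14689309 to 16346022 in the other sh1 libraries). RUNX2, the targeted gene, lay between 4.34 and 5.68 FPKM in shNC and between 2.65 and 3.36 FPKM in sh1, a log2 fold change of -0.69 (edgeR, adjusted p = 4.6e-06). FPKM is the count divided by gene length and library total. Levels can thus be compared between genes as far as that length matches the bases whose reads were counted. Of 9 markers of bone-forming cells, 5 stayed under 1 FPKM in every library, and IBSP, a defining one, was at 0 in all 12. SPARC was at 272 to 322 FPKM in shNC and at 410 to 537 FPKM in sh1 (log2 fold change 0.66, adjusted p = 5.6e-07 from edgeR). COL1A1 was at 0.387 to 0.811 FPKM in shNC and at 0.879 to 1.96 FPKM in sh1 (1.49, adjusted p = 2.3e-05), so both were higher in sh1 without overlap. SPP1 was at 2.12 to 3.14 FPKM in shNC and at 1.98 to 3.64 FPKM in sh1. It did not pass (-0.20, adjusted p = 0.30 from edgeR), and neither did COL1A2 (0.22, adjusted p = 0.55), which stayed at or under 0.0798 FPKM. Markers of other cell types were near 0, with a summed level of at most 0.258 FPKM for blood, 0.705 for endothelium and 0.0916 for liver. The epithelial list summed to 46.8 to 56.5 FPKM because of the keratin KRT18, with CDH1 at 0 in all libraries. The skeletal muscle list summed to at most 0.132 FPKM in shNC and to 0.221 to 0.903 in sh1, through DES. The part of these markers in the results was not tested.

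BCAT1, the cytosolic aminotransferase (ENSG00000060982, chromosome 12, 24810024 to 24949101, minus strand), was the most abundant member by far. Gene positions here are those of GENCODE 44 on GRCh38. Its level was 36.4 to 41.6 FPKM in shNC (median 40.2) and 36.4 to 43.4 FPKM in sh1 (median 39.7). The groups overlapped along nearly their whole range. BCAT1 had a higher level in shNC than 94.1% of the genes tested. Its log2 fold change was -0.01 (95% interval -0.13 to 0.11, adjusted p = 0.91 from edgeR), and its sign changed with the scaling. Each library held 4881 to 9784 BCAT1 counts, and the interval runs from 0.915-fold to 1.08-fold.

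BCAT2, the mitochondrial aminotransferase (ENSG00000105552, chromosome 19, 48795062 to 48811029, minus strand), was at 6.58 to 9.19 FPKM in shNC (median 7.90) and at 6.73 to 9.24 FPKM in sh1 (median 7.66). Its libraries varied more than those of BCAT1, and the groups again overlapped. Its log2 fold change was -0.04 (95% interval -0.22 to 0.14, adjusted p = 0.79 from edgeR). Per length, BCAT1 was above BCAT2 in every library. The BCAT1 to BCAT2 ratio of FPKM values was 3.97 to 6.11 in shNC (median 4.92) and 3.94 to 6.46 in sh1 (median 5.19). The ratio within a library does not depend on the scaling, and its log2 difference between the groups was 0.025 (exact two-sided permutation test, p = 0.86, adjusted p = 0.86 over 3 ratios). That difference turned negative without shNC replicate 6 (-0.042), sh1 replicate 4 (-0.011) or sh1 replicate 6 (-0.043).

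**Figure D1:**
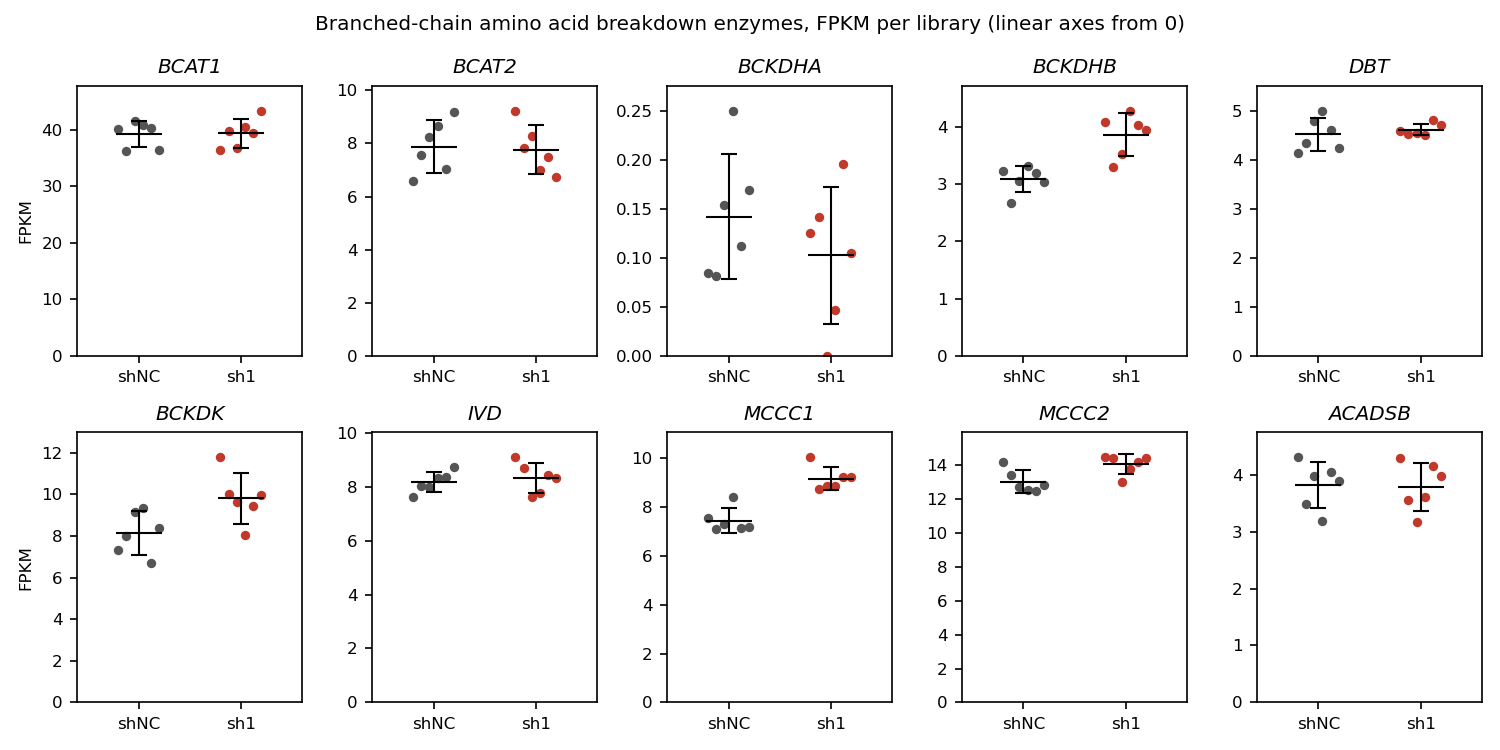
FPKM of the 10 enzymes in each shNC (grey) and sh1 (red) library, on linear axes from 0. Points are libraries and black bars give the mean and SD of 6 libraries. MCCC1 is the member whose groups do not overlap (7.09 to 8.42 against 8.73 to 10.04), and BCKDHA stays at or under 0.251 FPKM.

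Of the members that are subunits of the dehydrogenase complex, BCKDHB passed the test as higher, DBT did not pass and BCKDHA could not be tested. DLD, the E3 part and no member, passed as lower (-0.13, adjusted p = 0.034 from edgeR), a call lost on leaving out some single libraries. The difference between the changes of BCKDHB and DBT was not tested. BCKDHB, the E1 beta subunit (ENSG00000083123, chromosome 6, 80106647 to 80346270, plus strand), was at 2.67 to 3.32 FPKM in shNC (median 3.12) and at 3.30 to 4.28 FPKM in sh1 (median 3.99). In 5 of 6 sh1 libraries it lay above every shNC library, and sh1 replicate 2 (3.30 FPKM) lay just under shNC replicate 4 (3.32 FPKM). Its log2 fold change was 0.31 (edgeR, standard error 0.084, 95% interval 0.14 to 0.49, adjusted p = 0.010). This was the largest log2 fold change among the 9 tested members, though its interval overlaps those of MCCC1 and BCKDK. Without sh1 replicate 3 it was 0.35 (adjusted p = 0.0071).

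DBT, the E2 core (ENSG00000137992, chromosome 1, 100186919 to 100249834, minus strand), was at 4.14 to 5.00 FPKM in shNC (median 4.47) and at 4.51 to 4.81 FPKM in sh1 (median 4.57). The sh1 libraries lay inside the shNC range and closer together (SD 0.118 against 0.337 FPKM, n = 6 each). The log2 fold change was 0.02 (95% interval -0.10 to 0.13, adjusted p = 0.85 from edgeR). DLD, the E3 part that this complex shares with other keto acid dehydrogenases and the glycine cleavage system, is no member of the list. It was lower in sh1, at 26.8 ± 0.576 FPKM against 29.1 ± 1.03 FPKM (SD, n = 6 each), with a log2 fold change of -0.13 (adjusted p = 0.034 from edgeR). The call was lost on leaving out any of shNC replicates 1, 2, 3 and 5 or sh1 replicates 1, 2, 3, 5 and 6, with adjusted p from 0.067 to 0.10, and with upper-quartile scaling (adjusted p = 0.052) or no filter (adjusted p = 0.14).

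BCKDHA, the E1 alpha subunit that carries the regulatory phosphorylation (ENSG00000248098, chromosome 19, 41397808 to 41425002, plus strand), was almost without counts. It had 4 to 10 counts per library in shNC and 0 to 8 in sh1, which is 0.0812 to 0.251 FPKM in shNC (median 0.133) and 0 to 0.197 FPKM in sh1 (median 0.115). The groups overlapped, and sh1 replicate 3, the smallest library, held 0 counts, which allows up to 3. In edgeR without a filter its log2 fold change was -0.40 (adjusted p = 0.64) and in DESeq2 -0.42 (adjusted p = 0.64). Its E1 partner BCKDHB had 161 to 285 counts in the same libraries, and the reason for the low counts of BCKDHA was not tested. In GENCODE 44, 1660 of the 2251 exon bases of BCKDHA (73.7%) also belong to a readthrough gene on the same strand, ENSG00000255730, which itself had 0 to 1 counts per library. Of the other members, BCAT1 shared 2.5%, MCCC1 1.7% and DBT 1.4% of their exon bases with other genes, all on the opposite strand, and the rest none.

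Across the deposited table, the percent of protein-coding genes without counts differed with the share of exon bases they have in common with other genes. Of 277 protein-coding genes with all exon bases shared, 190 (68.6%) had no count in any of the 12 libraries. Of 10939 with no shared exon base, 1421 (13.0%) had none, and of 7801 with up to 50% shared, 232 (2.97%). Among the 814 genes between these, the class of BCKDHA, it was 166 (20.4%). BCKDHA itself was not at 0, with 38 counts in shNC and 25 in sh1. Genes under 100 counts over the 12 libraries together, as BCKDHA was, made up 64.3% of its class. This share was 41.1% with no shared exon base, 21.0% with up to 50% shared and 96.0% with all shared. How reads in shared exons were counted is not given in the sources used here, and the part of this sharing in the BCKDHA level was not tested. The level of BCKDHA is therefore given as counted and is not set against those of the other subunits as an amount of RNA.

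**Figure D2:**
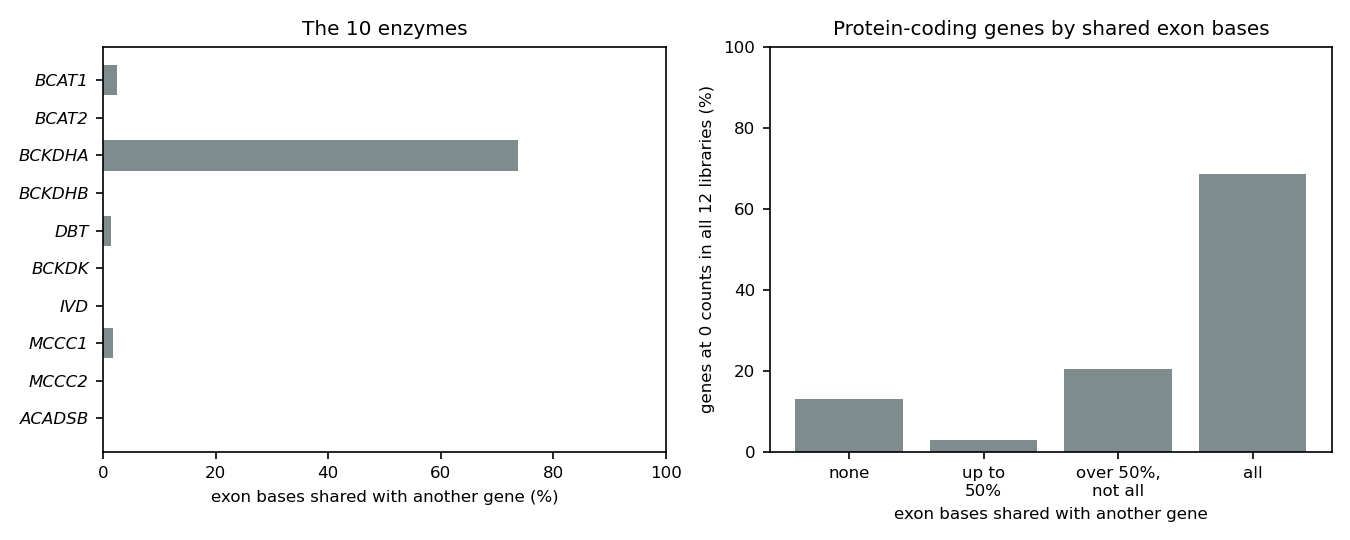
Left, percent of exon bases that each of the 10 enzymes shares with another gene of the deposited table in GENCODE 44, where BCKDHA stands at 73.7% and the others at 0 to 2.5%. Right, percent of protein-coding genes with 0 counts in all 12 libraries by the share of their exon bases that belongs to another gene, which is 13.0% with none shared, 2.97% with up to 50% shared, 20.4% above that and 68.6% with all shared.

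BCKDK, the kinase that inactivates the complex (ENSG00000103507, chromosome 16, 31106107 to 31112791, plus strand), was at 6.68 to 9.37 FPKM in shNC (median 8.18) and at 8.02 to 11.8 FPKM in sh1 (median 9.80). In 5 of 6 sh1 libraries it lay above every shNC library, and sh1 replicate 4 (8.02 FPKM) lay inside the shNC range. Its log2 fold change was 0.25 (edgeR, standard error 0.088, 95% interval 0.07 to 0.44, adjusted p = 0.041). This call was the least stable of the 3. It was lost with limma on log2(FPKM + 1) (adjusted p = 0.057) and on leaving out shNC replicate 1 (0.076), 2 (0.066), 5 (0.086) or 6 (0.060) or sh1 replicate 1 (0.086), 2 (0.060) or 6 (0.058), values that are adjusted p from edgeR. Without sh1 replicate 3 it held (0.27, adjusted p = 0.043).

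PPM1K, the phosphatase that opposes BCKDK, was at 1.97 ± 0.143 FPKM in shNC and at 2.00 ± 0.140 FPKM in sh1 (SD, n = 6 each), with a log2 fold change of 0.01 (95% interval -0.13 to 0.15, adjusted p = 0.95 from edgeR). The BCKDK to PPM1K ratio of FPKM values was 3.45 to 4.40 in shNC (median 4.25) and 3.62 to 6.54 in sh1 (median 4.96). It was above every shNC library in 5 of 6 sh1 libraries and low in sh1 replicate 4. The log2 difference of 0.25 did not pass (exact two-sided permutation test, p = 0.071, adjusted p = 0.11 over 3 ratios). Without sh1 replicate 4 it was 0.34 (adjusted p = 0.0065 by the same exact test). Leaving out that library separates the groups fully, which fixes the test at its smallest p, so nothing is read from it. On leaving out single libraries the adjusted p of the same test reached up to 0.23.

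MCCC1, the biotin-carrying alpha subunit of methylcrotonyl-CoA carboxylase (ENSG00000078070, chromosome 3, 183015218 to 183116075, minus strand), was at 7.09 to 8.42 FPKM in shNC (median 7.23) and at 8.73 to 10.04 FPKM in sh1 (median 9.03). Every sh1 library lay above every shNC library, which among the members held for MCCC1 alone, and 11.9% of all genes tested had groups that did not overlap in either direction. The shNC library nearest to sh1 was replicate 4. The log2 fold change was 0.28 (edgeR, standard error 0.059, 95% interval 0.16 to 0.41, adjusted p = 0.0019). It passed in each of the 23 alternative analyses, from 0.27 to 0.33 on the log2 scale, and was 0.30 without sh1 replicate 3 (adjusted p = 0.0016).

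MCCC2, the beta subunit of the same enzyme (ENSG00000131844, chromosome 5, 71579531 to 71658706, plus strand), was at 12.5 to 14.2 FPKM in shNC (median 12.8) and at 13.0 to 14.5 FPKM in sh1 (median 14.3). All 6 sh1 libraries lay above the shNC median and 3 above every shNC library. Its log2 fold change was 0.09 (95% interval -0.02 to 0.20, adjusted p = 0.20 from edgeR). The MCCC1 to MCCC2 ratio of FPKM values was 0.528 to 0.671 in shNC (median 0.566) and 0.604 to 0.693 in sh1 (median 0.645). The ratio in shNC replicate 4 (0.671) lay among the sh1 values, and the other shNC libraries lay at or under 0.573, below all sh1 libraries. The log2 ratio was higher in sh1 by 0.19 (exact two-sided permutation test, p = 0.011, adjusted p = 0.032 over 3 ratios). Leaving out shNC replicate 1, 2, 3, 5 or 6 or sh1 replicate 1, 3, 5 or 6 moved the adjusted p to between 0.052 and 0.078.

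**Figure D3:**
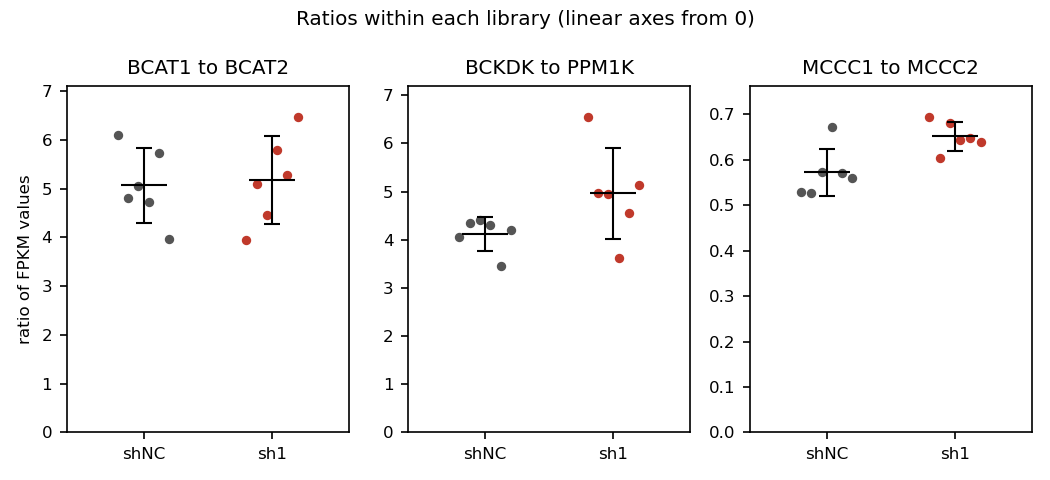
Ratios of FPKM values within each shNC (grey) and sh1 (red) library for 3 gene pairs, on linear axes from 0, with points for libraries and black bars for the mean and SD of 6 libraries. The MCCC1 to MCCC2 ratio lies between 0.604 and 0.693 in sh1 and, but for shNC replicate 4 at 0.671, at or under 0.573 in shNC.

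IVD, which oxidizes isovaleryl-CoA in the step before MCCC1 and MCCC2 (ENSG00000128928, chromosome 15, 40405485 to 40435947, plus strand), was at 7.62 to 8.74 FPKM in shNC (median 8.17) and at 7.60 to 9.10 FPKM in sh1 (median 8.38). The groups overlapped, and the log2 fold change was 0.01 (95% interval -0.11 to 0.13, adjusted p = 0.91 from edgeR). ACADSB, the dehydrogenase of the isoleucine route (ENSG00000196177, chromosome 10, 123008979 to 123058290, plus strand), was at 3.19 to 4.31 FPKM in shNC (median 3.94) and at 3.17 to 4.30 FPKM in sh1 (median 3.79). Its groups covered nearly the same range, and its log2 fold change was -0.03 (95% interval -0.22 to 0.16, adjusted p = 0.85 from edgeR).

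**Figure D4:**
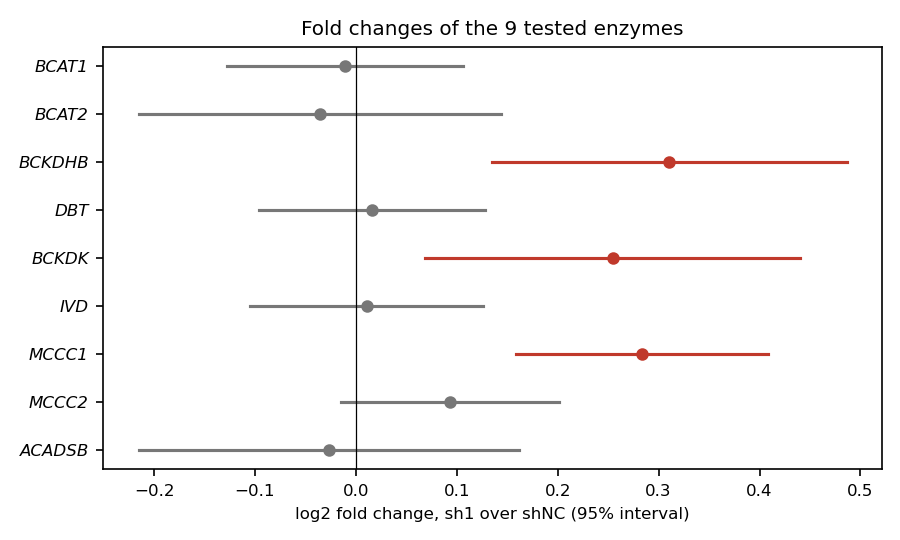
Log2 fold change, sh1 over shNC, of the 9 tested enzymes with 95% intervals from edgeR's fit. Red marks members that were higher at an adjusted p under 0.05 (BCKDHB 0.31, BCKDK 0.25 and MCCC1 0.28), and grey marks members that did not pass, whose intervals all include 0.

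Per length, the order of the members in shNC began with BCAT1 (median 40.2 FPKM) and MCCC2 (12.8 FPKM), each apart from the next. BCKDK, IVD, BCAT2 and MCCC1 followed between 8.18 and 7.23 FPKM, with overlapping ranges between neighbours. DBT (4.47 FPKM) lay below MCCC1 without overlap, and its range touched that of ACADSB (3.94 FPKM), as the range of ACADSB did that of BCKDHB (3.12 FPKM). BCKDHA (0.133 FPKM as counted) came last. The part of its shared exons in that level was not tested, and its place is not read as an amount of RNA. In sh1 the median of MCCC1 (9.03 FPKM) came before those of IVD and BCAT2, and the median of BCKDHB (3.99 FPKM) before that of ACADSB (3.79 FPKM). The ranges of these neighbours overlapped in sh1.

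Other genes of the pathway were described from 5 lists with 39 genes, of which 36 were tested. In sh1, 2 of them were higher, 5 were lower and 29 did not pass, with a median log2 fold change of -0.041. Of all genes tested, 12.8% were higher and 13.3% lower, and 11.9% had groups without overlap, so nothing particular to these lists is read from the counts. Among 4 tested partners of the dehydrogenase complex, DLD and LIAS, the lipoic acid synthase (-0.19, adjusted p = 0.043 from edgeR), were lower. LIAS lost its call in 17 of the 23 alternatives. Among these were leaving out any 1 of shNC replicates 1, 3, 4, 5 and 6 and sh1 replicates 1 to 5 (adjusted p = 0.052 to 0.11) and RLE scaling (adjusted p = 0.051). Among 4 tested genes of the later leucine route, ACAT1, the mitochondrial thiolase that splits acetoacetyl-CoA and also ends the isoleucine route, was the lower one. It fell from 16.4 ± 0.817 to 13.1 ± 0.875 FPKM (SD, n = 6 each) without overlap, a log2 difference of -0.35 in edgeR's fit (adjusted p = 0.00025). HMGCLL1 was at 0 in all libraries. Among 12 genes of the later valine and isoleucine routes, HIBADH, which oxidizes hydroxyisobutyrate from valine, was lower (-0.19, adjusted p = 0.019 from edgeR), though not without shNC replicate 3 (adjusted p = 0.0502) or 4 (0.053) or sh1 replicate 6 (0.061). In all, HIBADH lost its call in 5 of the 23 alternatives. The most abundant of these 12 genes, the hydratase ECHS1, was at 54.8 ± 4.01 and 50.9 ± 4.62 FPKM and did not pass (-0.12, adjusted p = 0.19).

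Of 9 cofactor and electron carrier genes, ETFDH, which passes electrons from IVD and ACADSB to the respiratory chain, was higher. It was at 3.45 ± 0.157 FPKM in shNC and at 4.26 ± 0.475 FPKM in sh1 (SD, n = 6 each). On the log2 scale it was 0.29 higher (adjusted p = 0.011 from edgeR). In GENCODE 44, 1427 of the 23865 exon bases of ETFDH (6.0%) are shared with PPID on the opposite strand. The length behind the FPKM of ETFDH is 4493 bases. The most abundant gene of that list, MMADHC of vitamin B12 handling, was at 74.5 ± 2.70 and 70.0 ± 2.40 FPKM and did not pass (-0.11, adjusted p = 0.080). Of 7 tested transporters, SLC43A2, a carrier of large neutral amino acids, was higher, at 0.431 ± 0.0415 FPKM in shNC and at 0.632 ± 0.101 FPKM in sh1 without overlap (0.54, adjusted p = 0.0028 from edgeR). SLC25A44, which brings branched-chain amino acids into mitochondria, was lower (-0.18, adjusted p = 0.033). It lost its call in 13 of the 23 alternatives. Among these were library totals (adjusted p = 0.053) and leaving out shNC replicate 1, 2, 5 or 6 or sh1 replicate 1, 4, 5 or 6 (adjusted p = 0.0501 to 0.10). The main leucine importer SLC7A5, at 79.9 ± 14.0 FPKM in shNC and 73.4 ± 7.24 FPKM in sh1, did not pass (-0.14, 95% interval -0.33 to 0.06, adjusted p = 0.30).

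Enzymes related to the members by family were described from 3 more lists. Of their 22 genes 20 could be tested, and of those 4 were higher and 3 lower, beside 12.8% and 13.3% of all genes tested. Over all 8 lists, the 8 lower calls became 5 without shNC replicate 1 or 3 or sh1 replicate 6, and 4 without shNC replicate 5 or sh1 replicate 1 or 5. Among the related keto acid dehydrogenases, DLST, the E2 core of the alpha-ketoglutarate complex, was higher (0.20, adjusted p = 0.0018 from edgeR) and DLAT, the E2 core of the pyruvate complex, lower (-0.18, adjusted p = 0.0093), both without overlap between the groups, while DBT was at 0.02. PDHX, which ties E3 to the pyruvate complex, was lower (-0.18, adjusted p = 0.024), but not without shNC replicate 5 (adjusted p = 0.081) or sh1 replicate 1 (0.069) or 5 (0.086). In all, PDHX lost its call in 5 of the 23 alternatives. Of the pyruvate dehydrogenase kinases, which belong to the family of BCKDK, PDK3 (0.31, adjusted p = 0.0093) and PDK2 (0.44, adjusted p = 0.026) were higher. PDK2 lost its call without shNC replicate 2 (adjusted p = 0.057) or 5 (0.052) or sh1 replicate 1 (0.060) or 5 (0.053), and 38.6% of its exon bases are shared with SAMD14. LIAS, PDHX, PDK2 and PDK3 were named after their values had been seen. Among the acyl-CoA dehydrogenases ACADM, for medium chains, was lower (-0.22, adjusted p = 0.0040), and the most abundant, ACADVL, did not pass (0.11, adjusted p = 0.088) except without sh1 replicate 3 (0.14, adjusted p = 0.034). Among the biotin carboxylases, to which MCCC1 belongs, pyruvate carboxylase PC was higher (0.43, adjusted p = 0.016) and ACACA, the most abundant, did not pass (0.08, adjusted p = 0.36). Other called genes also share exon bases with genes on the opposite strand, among them PC (8.5%, LRFN4), DLAT (13.3%, PIH1D2), DLD (5.9%, LAMB1) and ACADM (9.8%, DLSTP1). ACADM also shares 1.1% with RABGGTB on the same strand, which had 2369 to 4989 counts per library. The part of this sharing in their changes was not tested.

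**Figure D5:**
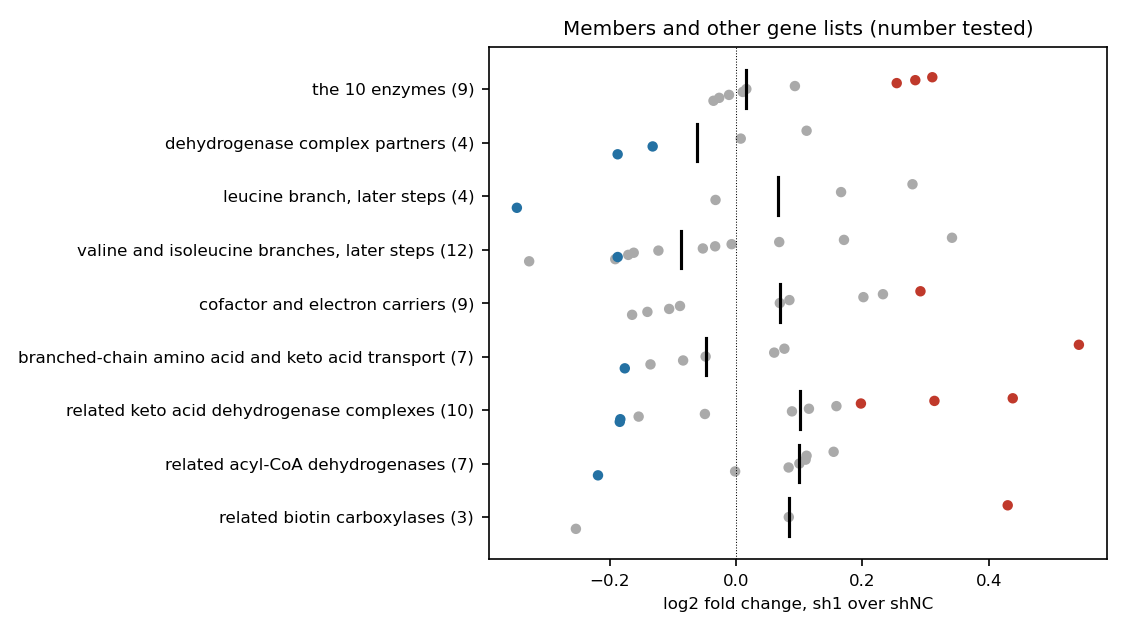
Each point is a tested gene, placed by its log2 fold change (sh1 over shNC) in the list of the 10 enzymes or in 1 of 8 lists of other genes, with the number tested in brackets. Red marks higher and blue lower genes with an adjusted p under 0.05, the rest are grey, and black lines are medians. The members run from -0.04 to 0.31, and no gene in the plot reached a 2-fold change.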

How the data were processed

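RNA-seq was performed on polyadenylated RNA, as read pairs from a library kit that does not mark strand. The authors aligned reads with HISAT2 to GRCh38 (also named in the submitters' processing notes) and deposited gene counts from featureCounts, FPKM values calculated from them and a normalized signal, in which each library's counts are divided by its DESeq2 size factor. Versions of these tools were not given in the sources used here. Identifiers were matched to GENCODE 44, which held 58207 of 58676. The length behind FPKM equals the GENCODE 44 exon length for BCAT2, BCKDHB and BCKDK and differs for the others, most for MCCC2 (6034 against 20778 bases), so exon sharing was computed on a later annotation than the authors used.

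Tests used the deposited counts and the quasi-likelihood functions of edgeR 4.0.16 (R 4.3.3) with filterByExpr, TMM scaling and Benjamini-Hochberg adjustment over 16489 genes. Standard errors were obtained as log2 fold change over root F. Entries without an Ensembl identifier (572) stayed in library totals. The common biological coefficient of variation was 0.106. Intervals cover 95%, and the limit for a count of 0 (3 counts) covers counting error only. Ratios were planned for 5 gene pairs. The 2 with BCKDHA could not be computed because it was at 0 in 1 library, so p-values were adjusted over 3. Alternatives were RLE and upper-quartile scaling, library totals, size factors as the authors used them, no filter or a stricter one, DESeq2 1.42.0, robust dispersion, limma 3.58.1 on log2(FPKM + 1) and log2(FPKM + 0.1), a replicate block and leaving out each library. The fits and the permutation test were tested on simulated data. All members were named, and of each other list the called gene with the smallest p-value in each direction, the most abundant gene, genes at 0 and genes of a ratio. Members and lists were chosen with earlier results of these data known.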

Additional observations from a re-analysis of the deposited data

Results flagged for a closer look

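Among 30 checks of a library against the rest of its group, 4 values from 3 libraries lay far from the others relative to the range of the group, where chance gives about 1 in 20 checks, or 1.5. MCCC1 was at 8.42 FPKM in shNC replicate 4 and at 7.09 to 7.53 FPKM in the other shNC libraries. The MCCC1 to MCCC2 ratio was 0.671 in the same library and 0.528 to 0.573 in the others. Without that library the MCCC1 log2 fold change was 0.33 in place of 0.28. The BCKDK to PPM1K ratio was 3.45 in shNC replicate 5 and 4.05 to 4.40 in the other shNC libraries. The total count was 11239638 in sh1 replicate 3 and 14689309 to 16346022 in the other sh1 libraries.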

How the results depend on the processing

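BCKDHB and MCCC1 kept their direction and their call under all 23 alternatives, with log2 fold changes of 0.25 to 0.36 and 0.27 to 0.33. RUNX2 stayed lower, from -0.72 to -0.63 when each library was left out. BCKDK stayed higher in all 23 but lost its call with limma on log2(FPKM + 1) (0.24) and log2(FPKM + 0.1) (0.27, adjusted p = 0.056), with the replicate block (0.25, adjusted p = 0.081) and on leaving out each of 7 libraries (0.21 to 0.32 over all 12). BCAT1, near 0, turned positive with upper-quartile scaling (0.00011), library totals (0.0054), limma on log2(FPKM + 1) (0.0048) and log2(FPKM + 0.1) (0.0049), and ran from -0.035 to 0.023 on leaving out each library. In the same way BCAT2 ran from -0.081 to 0.013, DBT from -0.0049 to 0.053, IVD from -0.0047 to 0.045, ACADSB from -0.066 to 0.028 and PPM1K from -0.016 to 0.048, none past the threshold. The members called were 2 to 3 higher and 0 lower throughout. Over the 56 other genes tested, 6 higher and 8 lower calls became 5 to 9 higher and 4 to 8 lower without single libraries, and lower calls fell to 3 with no filter and to 3 with the replicate block. The MCCC1 to MCCC2 difference of 0.19 stayed positive (0.17 to 0.24 without single libraries) but lost its call in 9 of these 12 cases. With the replicate block it was 0.19 (exact sign-flip test, adjusted p = 0.19), where 6 pairs allow no p under 0.031 before adjustment, so nothing is read from that test. The BCKDK to PPM1K difference ran from 0.16 to 0.34 and the BCAT1 to BCAT2 difference from -0.043 to 0.0995. The cause of these changes was not tested. Same-numbered libraries did not deviate together (correlations of -0.16 to 0.033), so the numbers were not taken to pair them. The block also ended the calls of DLD, HIBADH, SLC25A44, LIAS and PDHX. BCKDHA, at 0 to 10 counts, did not pass the filter on low counts, and the interval of ACADSB ran from 0.861-fold to 1.12-fold.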
